A study of Mus musculus with 2 samples.

Results

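The enzymes described here attach glutathione or glucuronic acid to reactive and fat-soluble compounds. They are 8 mouse genes: the UDP-glucuronosyltransferase genes Ugt1a5, Ugt1a6a, Ugt1a6b and Ugt1a7c, the mu class glutathione S-transferase genes Gstm1 and Gstm2, the alpha class gene Gsta2 and the pi class gene Gstp2. All probes of these genes were taken, 15 of the 24044 probes on the array, and 8384 genes or unnamed probes were detected in all. The genes were chosen by their FGF2 over control signal ratios on these same arrays, so the ratios are given as a description and without a test. The Ugt1a genes share exons and count as 1 observation, which leaves 5 observations.

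The FGF2 group was 1 culture of CD1 mouse embryonic fibroblasts, which serve as support cells in cultures of human embryonic stem cells, kept for 24 h in serum replacement medium for such stem cells with 40 ng/ml of the growth factor FGF2. The control group was 1 such culture kept for 24 h in the same medium with no added FGF2. Cells of both groups had been grown with fetal calf serum, arrested with the DNA crosslinker mitomycin C and replated on gelatine at 55000 cells per square centimetre. Each culture was measured on 1 Illumina bead array, so no difference below has a replicate check and no p-value was computed. The comparison asks which transcripts of arrested feeder cells differ after a day with FGF2.

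Conjugation is the step of detoxification that makes a compound water-soluble, so that transporters can carry it out of the cell. Glutathione S-transferases (GSTs) join the tripeptide glutathione to electrophiles, and UDP-glucuronosyltransferases (UGTs) move glucuronic acid from its UDP-activated form onto hydroxyl and amino groups. Both families are best known from the liver, and many members respond to the transcription factor NRF2, a sensor of electrophiles, or to the aryl hydrocarbon receptor, a sensor of planar aromatic compounds.

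Of the 5 observations, 1 was at least 1.5-fold higher with FGF2 (Ugt1a) and 2 were at least 1.5-fold lower (Gstm1 and Gstm2). Of all 8384 detected genes, 4.34% passed 1.5-fold in the higher direction and 5.57% in the lower one. At 2-fold, Ugt1a was higher and Gstm2 lower, where 1.37% and 1.85% of all detected genes stood. Because the same ratios chose the genes, nothing is read from these shares. A probe was called detected at a detection score of at least 0.99. By this measure 9 of the 15 probes were detected on both arrays, 1 on the FGF2 array only and 5 on neither. The scores nearest that limit among these probes were 0.995 for Gsta2 on the FGF2 array, just inside, and 0.984 for Gsta2 on the control array, just outside. The genes are named through numbers in the probe IDs read as NCBI gene IDs, which is an inference and not a column of the files. Fewer cells of a type and less RNA per cell cannot be told apart in such bulk RNA.

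**Figure D1:**
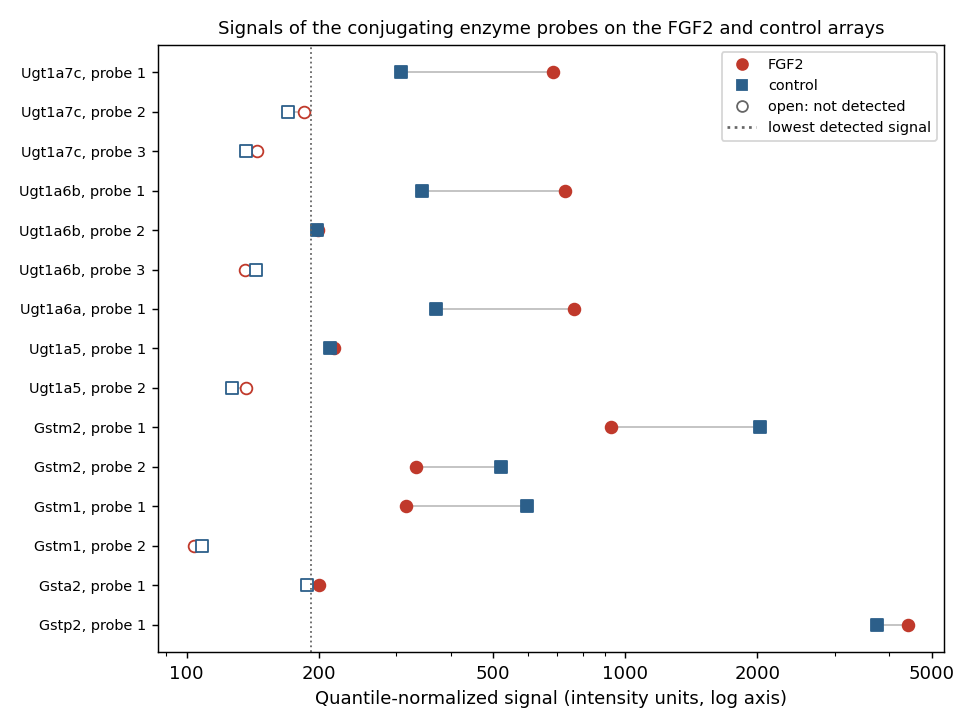
Quantile-normalized signal (x axis, intensity units, log axis) of each of the 15 probes (rows, numbered within a gene by brightness) on the FGF2 array (red circles) and the control array (blue squares), with open symbols where a probe was not detected and the lowest detected signal as a dotted line. The first probes of Ugt1a7c, Ugt1a6b and Ugt1a6a lie between 684 and 764 with FGF2 against 308 to 370 in the control, and the Gstm1 and Gstm2 pairs run the other way.

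The Ugt1a genes make UGTs that glucuronidate bilirubin, phenols and steroids, and those of the Ugt1a6 type take small planar phenols. In the RefSeq annotation, 9 Ugt1a genes lie nested on chromosome 1, and 7 of them have the same annotated end. Each has its own promoter and first exon and is spliced to common last exons, so a probe in the common part reads all of them together. The upstream sequences of Ugt1a7c and Ugt1a6a are shown because each gene has a start of its own and 1 detected probe that was higher with FGF2. They are the 250 bases before the annotated start in RefSeq (GRCm38.p6), chr1:88094751-88095000 for Ugt1a7c and chr1:88134559-88134808 for Ugt1a6a, both on the plus strand and written 5′ to 3′ in lower case, with motif matches in capitals.
Ugt1a7c: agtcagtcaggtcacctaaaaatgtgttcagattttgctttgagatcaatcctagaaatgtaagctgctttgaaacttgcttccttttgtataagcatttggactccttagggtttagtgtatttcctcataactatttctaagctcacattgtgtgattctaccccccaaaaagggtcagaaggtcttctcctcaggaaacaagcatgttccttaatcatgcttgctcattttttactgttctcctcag
Ugt1a6a: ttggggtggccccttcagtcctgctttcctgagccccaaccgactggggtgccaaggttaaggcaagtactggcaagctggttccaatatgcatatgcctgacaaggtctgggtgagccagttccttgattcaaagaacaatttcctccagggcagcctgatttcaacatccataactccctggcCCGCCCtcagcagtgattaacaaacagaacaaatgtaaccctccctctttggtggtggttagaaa
The searched motifs, on both strands, were the core of the antioxidant response element bound by NRF2 (TGACNNNGC), the core of the xenobiotic response element bound by the aryl hydrocarbon receptor (GCGTG), the TATA box (TATAAA), the GC box (GGGCGG) and the AP-1 site (TGAGTCA). Only these spellings were searched, so other forms of a motif were not counted. The AP-1 site was added after the Gstp sequences had been read. The only match in these windows was 1 GC box of Ugt1a6a on the minus strand, 65 to 60 bases before the start. Of 32851 mouse windows of the same length, 32.7% hold a GC box, 10.2% the antioxidant core, 28.2% the xenobiotic core, 12.4% the TATA box and 4.46% the AP-1 site. The 2 windows were 40.2% identical over 256 aligned columns. The table of promoters held 7 of the 8 genes, and Ugt1a6b was not among them. The Ugt1a5 window, which is not printed, held a xenobiotic core, 49 to 45 bases before its start. That of Gsta2, also not printed, held a xenobiotic core, 7 to 3 bases before its start. It also held a TATA box on the minus strand, 246 to 241 bases before the start.

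Of 9 Ugt1a probes, 5 were detected on both arrays, and 3 of these were about 2-fold brighter with FGF2. The only Ugt1a6a probe had a deposited signal of 753.2 on the FGF2 array and 380.2 on the control array. After quantile normalization between the arrays its signals were 764 with FGF2 and 370 in the control, a log2 ratio of 1.05 with a bead error of 0.078. Its FGF2 signal was 2.06-fold above that of the control. The bead error combines the deposited bead standard deviations of a probe on both arrays and holds no difference between cultures. Bead numbers are not given, so whether these are standard deviations or standard errors is unclear.

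The first Ugt1a6b probe read 728 with FGF2 and 345 in the control after normalization, a log2 ratio of 1.08. The first Ugt1a7c probe read 684 with FGF2 and 308 in the control, a log2 ratio of 1.15 with a bead error of 0.084. The 3 log2 ratios thus spanned 0.10, from 1.05 to 1.15, and the array files do not say which of the Ugt1a exons each probe reads. Pairs of probes of the same gene scattered with an SD of 0.18 in their log2 ratios over all 299 pairs detected on both arrays, a spread that holds no difference between cultures. Among 1677 genes of like brightness (mean normalized signal from 521 to 1070), to which Ugt1a6a and Ugt1a6b belong, 6.32% were at least 1.5-fold higher.

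The other Ugt1a probes were dim on both arrays. The first Ugt1a5 probe had normalized signals of 217 with FGF2 and 212 in the control, a log2 ratio of 0.03. The second Ugt1a6b probe read 199 with FGF2 and 198 in the control, a log2 ratio of 0.01. On the signals as deposited these ratios were -0.06 and -0.08, so their sign depends on the scaling. Both probes lie just over the lowest detected signals of 193 on the FGF2 array and 192 on the control array, so a difference in these transcripts could hardly be seen at this signal. The 4 Ugt1a probes that were not detected, 2 of them for Ugt1a7c and 1 each for Ugt1a5 and Ugt1a6b, had detection scores from 0.373 to 0.980. Ugt1a6b and Ugt1a7c therefore each have 1 probe with a 2-fold difference. The second Ugt1a6b probe was detected on both arrays, close to the detection limit, and showed no such difference. The further probes of both genes were not detected. Among the Ugt1a genes outside the 4, Ugt1a1, the bilirubin UGT, had detection scores of 0.095 with FGF2 and 0.019 in the control. The scores of Ugt1a2, Ugt1a9 and Ugt1a10 were also below 0.99 on both arrays.

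UGT genes of other clusters were at or near background. Of 14 UGT genes with a named probe, 6 were detected, and 4 of them are the Ugt1a genes above. The remaining 2 were Ugt2a1, an olfactory UGT detected with FGF2 only at a log2 bound of 0.08, and Ugt2b35, detected in the control only, with a bound of -0.04. Both bounds take their sign from the array on which the probe passed. With the Ugt1a genes as 1 observation, the detected UGTs had 3 values and a median log2 ratio of 0.08, which is the bound of Ugt2a1, against 0.01 over all detected genes. The supply of UDP-glucuronic acid was covered by few probes. Ugdh, the dehydrogenase that makes UDP-glucuronic acid, was not detected (scores 0.141 with FGF2 and 0.326 in the control). Slc35d1, which carries UDP-glucuronic acid into the endoplasmic reticulum, had normalized signals of 209 with FGF2 and 232 in the control, a log2 ratio of -0.15. Hk1, a hexokinase, was detected with FGF2 only, with a bound of 0.08.

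**Figure D2:**
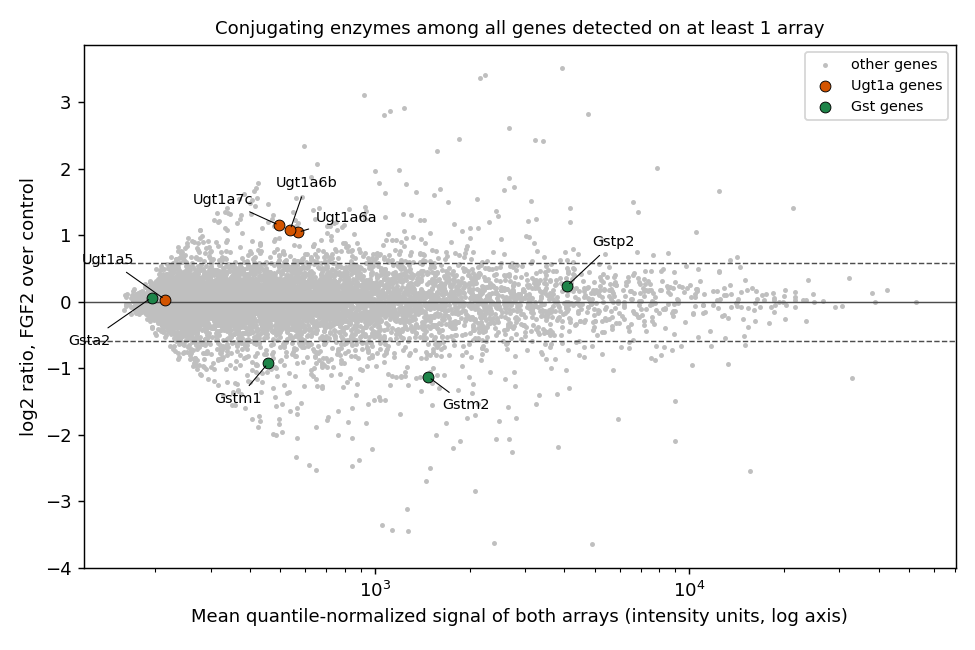
Log2 ratio of FGF2 over control (y axis) against the mean normalized signal of both arrays (x axis, intensity units, log axis) for the 8384 detected genes or unnamed probes (grey), each at its brightest probe, with Ugt1a genes in orange, Gst genes in green and 1.5-fold as dashed lines. Ugt1a6a, Ugt1a6b and Ugt1a7c lie between 1.05 and 1.15, Gstm1 and Gstm2 at -0.92 and -1.12, and Gsta2 and Ugt1a5 at the dim end near 0.

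The mu class genes Gstm1 and Gstm2 code for cytosolic GSTs that conjugate aryl halides, epoxides and quinones. They are neighbours within a cluster of 7 Gstm genes on chromosome 3. Their upstream sequences are shown because both genes were lower with FGF2. They are the 250 bases before the annotated starts, chr3:107986421-107986670 for Gstm2 and chr3:108017819-108018068 for the second of 2 starts listed for Gstm1, both on the minus strand.
Gstm2: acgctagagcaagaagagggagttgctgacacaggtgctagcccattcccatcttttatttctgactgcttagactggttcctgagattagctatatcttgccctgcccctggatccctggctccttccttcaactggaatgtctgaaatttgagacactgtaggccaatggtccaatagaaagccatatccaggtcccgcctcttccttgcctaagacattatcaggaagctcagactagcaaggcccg
Gstm1: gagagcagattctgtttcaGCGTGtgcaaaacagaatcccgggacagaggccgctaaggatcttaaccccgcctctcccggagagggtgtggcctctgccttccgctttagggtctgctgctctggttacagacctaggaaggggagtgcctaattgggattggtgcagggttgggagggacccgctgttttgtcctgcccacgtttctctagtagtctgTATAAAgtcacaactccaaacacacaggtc
None of the 5 motifs was in the Gstm2 window. The Gstm1 window held a TATA box, 30 to 25 bases before the start, and a xenobiotic core, 231 to 227 bases before it. The window of the first Gstm1 start, which overlaps it, held the same xenobiotic core, 76 to 72 bases before that start, and no TATA box. The second was chosen for printing after both had been searched. The 2 windows were 39.1% identical over 256 aligned columns.

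Gstm2 had 2 probes detected on both arrays, and both were lower with FGF2. The brighter one had deposited signals of 909.4 with FGF2 and 2033.1 in the control. Normalized, it read 928 with FGF2 and 2023 in the control, which is 2.18-fold lower with FGF2 (log2 ratio -1.12, bead error 0.060). The other read 334 with FGF2 and 521 in the control, a log2 ratio of -0.64, or 1.56-fold lower with FGF2. The probes share their direction, and their log2 ratios differ by 0.48. Among the 1677 genes of the brightest group, with mean signals from 1071 to 52588, 8.71% were at least 1.5-fold lower.

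Gstm1 rests on 1 probe. Its deposited signals were 307.6 with FGF2 and 610.0 in the control. Normalized, it read 316 with FGF2 and 598 in the control, which is 1.90-fold lower with FGF2 (log2 ratio -0.92, bead error 0.077). The second Gstm1 probe was not detected, with scores of 0.013 and 0.035 on the FGF2 and control arrays, so the direction has no second probe behind it. Gstm genes are close in sequence, and reads of 1 member by a probe for another cannot be told apart without the probe sequences, which are not used here. Of the other 5 Gstm genes only Gstm3 had a named probe, and it was not detected (scores 0.729 with FGF2 and 0.797 in the control).

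Gstp2 is a pi class GST, a class known from many tissues and from tumours. Its neighbour on chromosome 19 is Gstp1, the main pi class enzyme of the mouse, which is described beside it because the sequences of both are alike. Their upstream windows show this likeness. They are chr19:4042222-4042471 for Gstp2 and chr19:4037913-4038162 for Gstp1, both on the minus strand.
Gstp2: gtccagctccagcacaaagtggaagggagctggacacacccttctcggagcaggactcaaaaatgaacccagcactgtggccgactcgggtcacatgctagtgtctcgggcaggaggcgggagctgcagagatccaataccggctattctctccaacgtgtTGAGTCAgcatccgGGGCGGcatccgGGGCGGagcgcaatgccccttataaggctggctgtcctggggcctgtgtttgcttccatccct
Gstp1: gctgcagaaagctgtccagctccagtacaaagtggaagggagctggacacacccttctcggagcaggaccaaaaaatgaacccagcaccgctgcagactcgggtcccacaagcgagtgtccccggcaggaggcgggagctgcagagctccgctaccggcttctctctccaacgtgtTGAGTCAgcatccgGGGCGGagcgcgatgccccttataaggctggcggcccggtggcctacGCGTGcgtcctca
The 2 windows were 78.1% identical over 265 aligned columns. Each held 1 AP-1 site, 89 to 83 bases before the start in Gstp2 and 74 to 68 bases before it in Gstp1. Gstp2 had 2 GC boxes and Gstp1 had 1, and Gstp1 also had a xenobiotic core. A motif match is a description of letters and says nothing of whether a factor binds there.

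Gstp2 differed little between the arrays. Its only probe had deposited signals of 4490.3 with FGF2 and 3672.6 in the control. Normalized, it read 4414 with FGF2 and 3743 in the control, a log2 ratio of 0.24 with a bead error of 0.065, or 1.18-fold. Gstp1 had 2 probes. The brighter read 3374 with FGF2 and 2287 in the control (log2 ratio 0.56, 1.48-fold), and the other 2405 with FGF2 and 1563 in the control (log2 ratio 0.62, 1.54-fold). Both Gstp1 ratios lie close to the 1.5-fold limit, on either side of it. In the authors' values, described at the end, both Gstp1 probes passed it, at 1.63-fold and 1.66-fold. The log2 ratios of the Gstp1 probes exceed that of Gstp2 by 0.32 and 0.38, but cross-reading between such similar genes cannot be told apart here.

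Gsta2, an alpha class GST induced in liver by electrophiles, was at the edge of detection. Its only probe had the same deposited signal of 194.2 on both arrays. It passed detection on the FGF2 array only, with normalized signals of 200 with FGF2 and 188 in the control. The bound was 0.06 on the log2 scale and turned to -0.03 on the signals as deposited, so no direction can be given. The alpha class gene Gsta1 was not detected (scores 0.404 with FGF2 and 0.203 in the control). Over the 5 detected cytosolic GST genes of 8 with a named probe, the median log2 ratio was 0.06, which is the Gsta2 bound. It turned to -0.03 on the signals as deposited and to -0.34 over genes detected on both arrays. The FGF2 array thus had lower signals for Gstm1 and Gstm2 and higher ones for 3 of the 5 Ugt1a probes detected on both arrays. Gstp1 was near the 1.5-fold limit, Gstp2 was 1.18-fold higher, and Gsta2 gave no direction.

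Membrane-bound glutathione transferases were covered by 2 genes. Ptges, which uses glutathione to make prostaglandin E, read 436 with FGF2 and 233 in the control, 1.87-fold higher (log2 ratio 0.90). Mgst3, a microsomal GST, read 357 with FGF2 and 290 in the control, a log2 ratio of 0.30. Of 6 genes of glutathione synthesis and recycling with a named probe, 4 were detected and all 4 had ratios above 0, with a median of 0.52. Of all 8384 detected genes, 4385 had ratios above 0, with a median of 0.01. Gclm, the modifier subunit of the enzyme that starts glutathione synthesis, read 483 with FGF2 and 332 in the control (log2 ratio 0.54). Gss, the glutathione synthetase, read 295 with FGF2 and 210 in the control (log2 ratio 0.49). Both stayed under 1.5-fold on these signals but passed it in the authors' processed values, Gclm at 1.78-fold and Gss at 2.11-fold. Esd, an esterase that releases glutathione from its formyl conjugate, was 1.62-fold higher (9468 with FGF2 and 5829 in the control), and its other detected probe had a log2 ratio of 0.16. The count of genes past 1.5-fold in this list was thus 1 of 4 as reported, 3 in the authors' values and with background subtracted, and 0 with the mean over the probes of a gene. Over all detected genes the higher count was 364 as reported, 937 in the authors' values and 907 with background subtracted. Hagh, a thioester hydrolase of the glyoxalase pathway that frees glutathione, had a log2 ratio of 0.23. Slc7a11, which imports cystine for glutathione synthesis, was not detected (scores 0.808 with FGF2 and 0.791 in the control). Gpx2, the only glutathione peroxidase with a named probe, was not detected either.

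NRF2 targets outside conjugation were set beside the conjugating enzymes. Of 12 with a named probe, 11 were detected, 2 passed 1.5-fold with higher FGF2 signals and 0 with lower ones, and the median was 0.37. Of all detected genes 4.34% were higher and 5.57% lower by that fold. The count of 2 became 4 in the authors' values, where Mafg (1.76-fold) and Prdx1 (1.59-fold) passed too, and it was 1 at 2-fold. The higher count over all detected genes went from 364 to 937 in the authors' values and to 115 at 2-fold. Srxn1, which repairs oxidised peroxiredoxins, was 3.42-fold higher (1937 with FGF2 and 566 in the control). Pgd, an NADPH-making enzyme of the pentose phosphate pathway, was 1.64-fold higher (5504 with FGF2 and 3358 in the control). Mafg, a partner of NRF2 on DNA, had a log2 ratio of 0.56 and Prdx1, a peroxiredoxin, one of 0.53, while Fth1, the ferritin heavy chain, had -0.49 and Idh1, a cytosolic NADPH source, had -0.42. Of the 11 detected NRF2 targets, 8 had ratios above 0, as did 4385 of all 8384 detected genes. Whether NRF2 plays a part was not tested.

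The aryl hydrocarbon receptor list held 3 genes with a named probe and 2 that were detected, and they went opposite ways. Cyp1b1, a cytochrome P450 that oxidises polycyclic hydrocarbons and estrogens, read 1285 with FGF2 and 4325 in the control, 3.37-fold lower with FGF2 (log2 ratio -1.75). Ugt1a6a was 2.06-fold higher, as given above. Arnt, the dimer partner of the receptor, was not detected.

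Other conjugation enzymes were covered by few detected probes. Of 5 sulfo-, acetyl- and methyltransferase genes with a named probe, 2 were detected. Glyat, which joins glycine to acyl groups, was 1.79-fold higher (407 with FGF2 and 227 in the control). Tpmt, a thiol methyltransferase, was detected with FGF2 only, with a bound of 0.13. Of the conjugate exporters, Abcc1, Abcc2 and Abcc10 were not detected. The aldehyde and ketone reductases Akr1a1 and Akr1b3 had log2 ratios of 0.12 and 0.24. Over the lists together, and without the 8 genes, 5 of 27 detected genes (18.5%) passed 1.5-fold in the higher direction and 1 (3.70%) in the lower one, against 4.34% and 5.57% of all detected genes. The 5 were Ptges, Esd, Srxn1, Pgd and Glyat, and the 1 was Cyp1b1. The median of the 27 was 0.28, against 0.01 over all detected genes. The lists were drawn up with earlier results of these data known. The all-gene share also varies with brightness, from 0.12% higher in the dimmest group of 1677 genes to 7.39% in the brightest. Nothing is therefore read from the shares or medians of the lists.

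**Figure D3:**
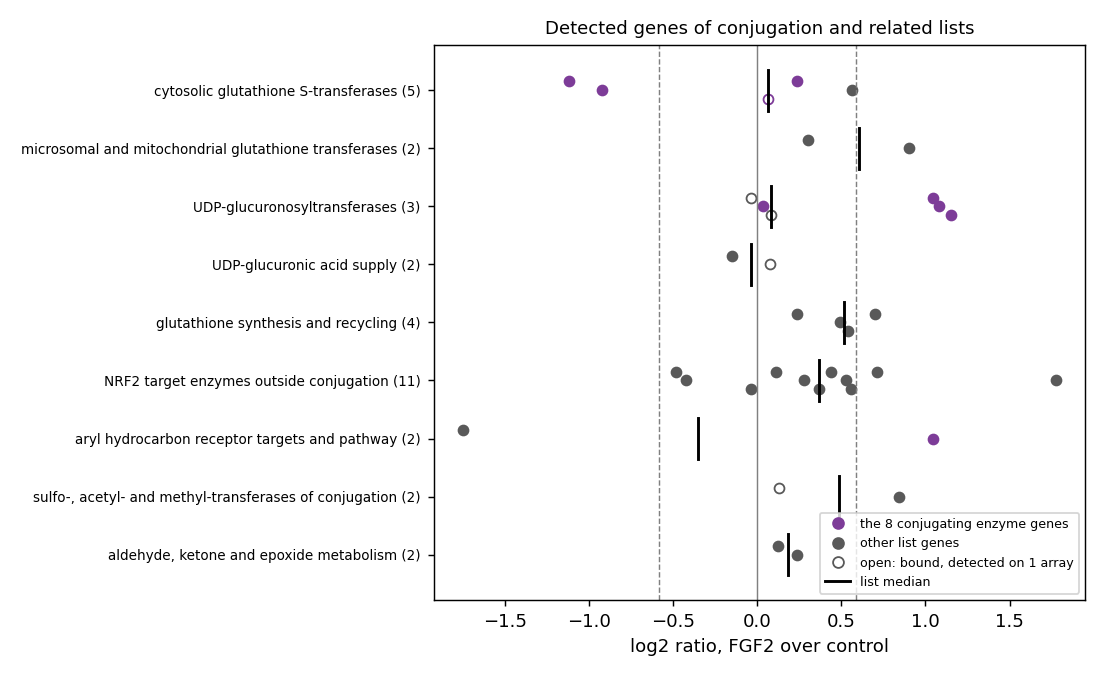
Log2 ratio of FGF2 over control (x axis) for every detected gene of the conjugation and related lists (rows, with the number of detected genes, the Ugt1a genes counted once there and in the median), the 8 genes in purple and other genes in grey, open where the value is a bound, with list medians as black bars and 1.5-fold as dashed lines. The Ugt1a genes reach 1.15 and Srxn1 1.78, while Gstm2 (-1.12) and Cyp1b1 (-1.75) lie on the other side.

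Named genes with the ratio nearest to that of Ugt1a6a, among the 878 that both arrays detected at a mean signal within 1.5-fold of its own, were Nes, Alcam and Mertk. Nes, the intermediate filament nestin, had a log2 ratio of 1.08, Alcam, a cell adhesion molecule, 0.99 and Mertk, a receptor tyrosine kinase, 0.94. For Gstm1, out of 1018 such genes, the nearest were Sort1, a sorting receptor (-0.91), Mxd4, a MAX-binding repressor (-0.95) and Parp9, a member of the PARP family (-0.88). This likeness is that of 1 ratio between 2 arrays.

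The cells were checked against markers. Of 10 fibroblast markers 5 had a named probe and all 5 were detected, and they went both ways. Col1a1, Col1a2 and Col3a1, which code for fibrillar collagens, had log2 ratios of -1.76, -1.30 and -0.57, and the calcium-binding S100a4 and the proteoglycan Dcn had 0.75 and 0.42. Their summed normalized signal was 13138 with FGF2 and 18255 in the control, of which Col1a1 alone gave 2697 and 9119. A sum over different probes does not measure the share of a cell type. Because GSTs and UGTs are abundant in liver, hepatocyte markers were looked at, and the 3 with a named probe (Apoa1, Apoa2 and Serpina1a) were not detected on either array. Of 5 epithelial markers with a named probe, Krt18 and Cldn4 were detected, with a summed signal of 608 with FGF2 and 408 in the control, while Krt8, Krt19 and Sfn were not. Krt18, a keratin of simple epithelia, was 1.88-fold higher with FGF2 (3.57-fold in the authors' values) and Cldn4, a tight junction protein, 1.10-fold. Of 7 macrophage and blood markers, Lyz2 was detected on both arrays, at 206 with FGF2 and 224 in the control, and Hba-a1 on the control array only, at a log2 bound of -0.04. Of 2 endothelial markers Emcn was detected (302 with FGF2 and 268 in the control) and Pecam1 was not. Whether epithelial cells were present, or had a part in the Ugt1a values, was not tested.

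The size of the ratios depended on the background that each signal contains, and the directions of Ugt1a, Gstm1, Gstm2 and Gstp2 did not. Probes that were not detected had median deposited signals of 132.5 on the FGF2 array and 140.5 on the control array, and background of this size shrinks the ratio of a dim probe. In the authors' processed values, which have a background removed, Ugt1a6a read 655 with FGF2 and 241 in the control, 2.72-fold higher, and the 3 Ugt1a probes were 2.72-fold to 3.22-fold higher. Gstm1 there was 2.54-fold lower with FGF2 (186 with FGF2 and 471 in the control) and Gstm2 2.31-fold lower (820 with FGF2 and 1894 in the control). Ptges and Glyat became 3.04-fold and 2.92-fold higher, more than 1.5 times the folds given above.

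**Figure D4:**
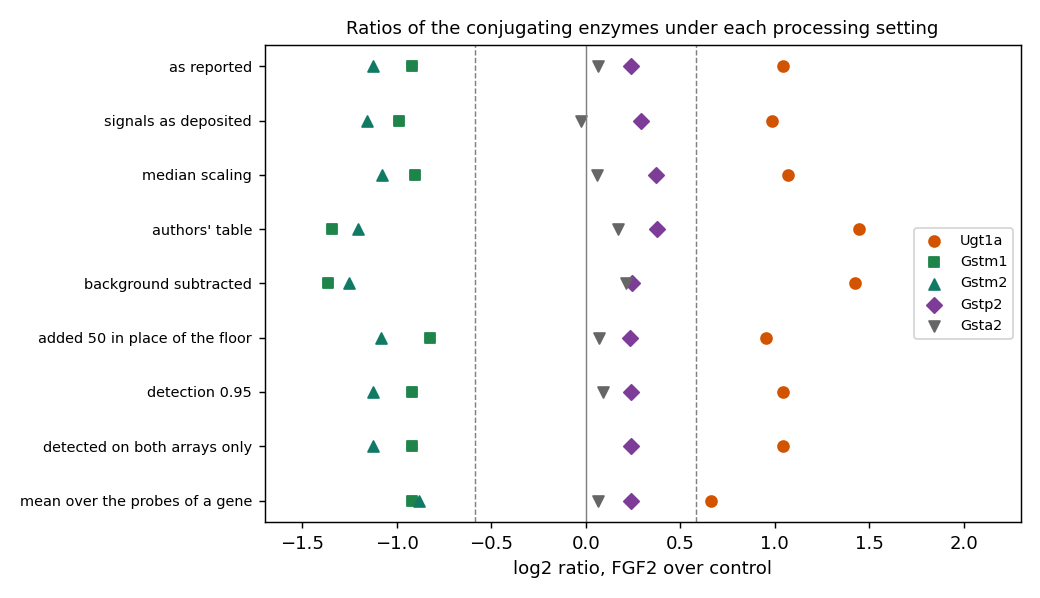
Log2 ratio of FGF2 over control (x axis) of the 5 observations under the reported setting and 8 others (rows), with 1.5-fold as dashed lines. Ugt1a stays at or above 0.66, Gstm1 and Gstm2 at or below -0.83, and Gstp2 between 0.24 and 0.38 in all settings run.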

How the data were processed

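Total RNA of 2 cultures, 1 with and 1 without FGF2, was measured on Illumina bead arrays of 1 colour. The input was 300 ng of RNA with a linear amplification of 6 h and a Cy3 label, per the labels' protocols. The submitters' processing notes name BeadStudio 1.0. Per the file headers, the deposited files give each probe's average signal intensity, the bead standard deviation in the same intensity units and a detection score, a fraction from 0 to 1. The deposited intensities include background. The authors' processed intensities equal the signal minus 131.5, times 1.0542, for FGF2 and the signal minus 139.2 for the control, to within 0.0945, and exist where the detection score was at least 0.99. Their method is not given in the sources used.

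Signals were quantile normalized between the arrays. The lowest detected signal of each array served as a floor, and ratios are log2 of FGF2 over control. Where 1 array alone detected a gene, the ratio is a bound. The brightest detected probe stands for its gene. Numbers of at least 5 digits after 1 or 2 zeros in a probe ID were read as NCBI gene IDs (RefSeq, GRCm38.p6), and 8884 of 9523 (93.3%) matched. Of the 8384 detected genes 3217 were named, and 5167 unnamed probes count under their own ID. The spread between probes of a gene is the root mean squared difference of their log2 ratios divided by the root of 2. Levels of different probes were not compared, and the number of arrays limits the precision.

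The genes and lists were chosen with earlier results of these data known. Genes named are the 8 members, list genes at least 1.5-fold apart, or otherwise the 3 brightest detected genes of a list, and the genes nearest in ratio. Gstp1, further list genes under 1.5-fold and genes that were not detected are named in addition, chosen after their values were seen. Some list genes are not reported here and were left out of the list counts and medians. Alternatives covered scaling, background, low values, the detection level, the probe choice and the fold. The procedure was tested on simulated data. Promoter windows were aligned globally with Biopython 1.88. The other software was Python 3.11.15, numpy 2.4.6, pandas 2.3.3 and matplotlib 3.10.9.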

Additional observations from a re-analysis of the deposited data

How the results depend on the processing

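With 1 array per group there is no replicate to leave out, and differences between signals under the lowest detected one cannot be seen. No paired analysis was possible because each group has 1 sample. Over the settings run, the ratios of Ugt1a, Gstm1 and Gstm2 and those of 18 other named genes kept their sign. With the authors' table the log2 ratio was 1.44 for Ugt1a and -1.34 for Gstm1, and with the median signal of undetected probes subtracted it was 1.42 and -1.37. With the mean over the probes of a gene it was 0.66 for Ugt1a and -0.88 for Gstm2. With the background subtracted the folds grow because background is part of both signals. In the authors' values the FGF2 signals are also multiplied by 1.0542, with no quantile step. The log2 ratio of Prdx1 was 0.53 with the background subtracted and 0.67 in the authors' values. That of Fth1 was -0.49 and -0.35. At 2-fold in place of 1.5-fold, 1 of the 5 observations was lower in place of 2, and of all list genes 2 were higher, in place of 6. The authors' table had 11 list genes at least 1.5-fold higher, and 10 were so with the background subtracted. Of all genes, 364 were higher and 467 lower by 1.5-fold or more. These became 937 and 944 with the authors' table and 907 and 968 with the background subtracted. At 2-fold, 115 and 155 became 290 and 389 with the authors' table, and 290 and 390 with the background subtracted. The other 100 comparisons of these results moved by less than 0.18 on the log2 scale or by at most 1.5 times in a count. Of the values of single lists, 24 moved by more and 210 did not, and of those of the 18 genes, 18 and 126. Genes detected on both arrays leave Gsta2 without a value.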
